A study of Mus musculus with 6 samples.

Results

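Heat shock genes code for molecular chaperones, proteins that hold, refold or clear other proteins that have lost their shape. The 10 genes described here are the inducible HSP70 pair Hspa1a and Hspa1b, the constitutive HSP70 Hspa8, the HSP110 gene Hsph1, the HSP40 co-chaperone Dnajb1, the nucleotide exchange factor Bag3, the inducible HSP90 gene Hsp90aa1, the small heat shock protein genes Hspb1 and Hspb8, and Hspd1. They were chosen by name, and all 10 were found by Ensembl identifier among the 22556 genes of the expression tables. The set was labelled cytosolic, which does not hold for Hspd1, since this gene codes for HSP60, the chaperonin of the mitochondrial matrix.

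HSP70 proteins bind unfolded stretches of client proteins and use ATP to release them, J proteins such as Dnajb1 start that cycle, and exchange factors such as Bag3 and Hsph1 end it. HSP90 acts later, on clients that are almost folded, and small heat shock proteins hold clients without using ATP. Transcription of many of these genes is raised by heat shock factor 1, which binds DNA at heat shock elements. Pancreatic acinar cells make digestive enzymes in very large amounts, and HSP70 and HSP27, the protein of Hspb1, have long been studied in caerulein pancreatitis.

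RNA was taken from the whole pancreas of wild type C57BL/6 mice aged 8 weeks, with 2 mice in each of 3 groups. The saline mice received saline. In the AP mice, acute pancreatitis was induced with 10 injections of caerulein, a peptide that over-stimulates acinar cells, given 1 h apart. The polyI:C-pretreated AP mice received polyI:C, a synthetic double-stranded RNA sensed by TLR3, before the same caerulein course. In the paper this interval was 1 or 8 h, and which of them applies to the sequenced mice is not given. The paper reports male mice for its pancreatitis models. The pancreas was collected 24 h after the first caerulein injection. A group with polyI:C and no caerulein was not analysed here, so an effect of polyI:C alone on these genes cannot be told apart from one on the response to caerulein.

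Expression is given as TPM, a measure of transcript abundance that divides the reads of a gene by its length and scales every library to the same total, so levels of different genes can be set side by side. Estimates of depth from the spacing of low TPM values gave 3296888 reads for the shallowest library (saline) and 10852146 for the deepest (polyI:C-pretreated AP), with fewer reads in both saline mice than in the other 4. The 15 genes that each held over 1% of the TPM took 27.6% to 30.4% of the total in saline mice, 16.7% to 19.0% in AP mice and 15.4% to 16.3% after polyI:C pretreatment. The median of the 16778 genes tested lay 0.45 higher on the log2 scale in AP than in saline mice, and 0.48 higher in polyI:C-pretreated AP than in saline mice. Median-of-ratios scaling, which sets the libraries level at a typical gene, brought both medians to 0.06, and each change against saline is given below on both scales.

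Heat shock elements are shown first, because they are the sequence feature for which these genes are known. The genes' start sites were searched for GAANNTTC or TTCNNGAA, 2 units of the element separated by 2 free bases. No mismatch was allowed, so elements with a changed base in a unit were missed. The windows came from RefSeq (GRCm38.p6) and ran from 250 bases before to 50 bases after a start site, and both strands were read. Of the 10 genes, 8 had such a window, while Hspa8 and Hsp90aa1 had none in the table used. The 2-unit element was found in 7 of the 8 genes, the exception being Dnajb1, and in 17.0% of the 27025 genes with a window. The 3-unit element, GAANNTTCNNGAA or TTCNNGAANNTTC, which contains the 2-unit one, was found in Hspd1 and Hsph1 and in 0.662% of all genes. CCAAT or its reverse complement occurred in 5 of the 8 genes against 41.1% of all genes, and TATAAA or its reverse complement in 0 of the 8 against 15.7%.

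The upstream sequences of the inducible HSP70 pair are printed whole, from 250 bases to 1 base before the start site and read along the gene, because the 2 genes are near copies in the DNA before the start as well as in the transcript. Capitals mark the units of the only exact match to the heat shock element, which begins 104 bases before the start in both. Units with a mismatch are left in lower case. Hspa1a lies at chr17:34972157-34972406 and Hspa1b at chr17:34959239-34959488, both on the minus strand, with no annotated exon in either stretch.
Hspa1a: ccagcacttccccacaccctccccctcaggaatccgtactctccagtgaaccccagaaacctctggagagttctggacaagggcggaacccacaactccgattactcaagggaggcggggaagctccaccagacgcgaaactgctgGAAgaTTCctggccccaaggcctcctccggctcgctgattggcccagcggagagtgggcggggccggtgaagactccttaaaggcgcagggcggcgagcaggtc
Hspa1b: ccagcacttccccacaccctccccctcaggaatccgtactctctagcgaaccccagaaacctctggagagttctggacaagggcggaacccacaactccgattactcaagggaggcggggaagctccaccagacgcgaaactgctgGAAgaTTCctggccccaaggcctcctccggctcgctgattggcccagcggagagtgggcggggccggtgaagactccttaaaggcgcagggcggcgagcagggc
The 2 stretches differed at 3 of 250 bases, and the exact match is the same in both.

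The elements of the other genes are shown with a few flanking bases, so that their number and spacing can be compared. For Hspd1 the stretch is chr1:55088053-55088082 (minus strand), for Hspb1 chr5:135887790-135887841 (plus strand), for Hsph1 chr5:149636352-149636379 and chr5:149636287-149636312 (minus strand), for Hspb8 chr5:116422845-116422872 (minus strand), and for Bag3 chr7:128523613-128523632 (plus strand). Capitals again mark the units.
Hspd1: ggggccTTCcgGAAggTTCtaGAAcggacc
Hspb1: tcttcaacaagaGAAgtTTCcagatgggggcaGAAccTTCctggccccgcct
Hsph1, before the start: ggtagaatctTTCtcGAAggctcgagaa
Hsph1, past the start: aaatgctgcagaTTCtgGAAagTTCt
Hspb8: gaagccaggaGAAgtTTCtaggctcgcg
Bag3: tggatgggaccaGAAgtTTC
The Hspd1 stretch holds an unbroken run of units, and its 2 overlapping 3-unit matches lie between 144 and 127 bases before the second start site listed for the gene. The same bases lie 72 to 89 bases before the start of Hspe1, which codes for HSP10, the partner of HSP60, and is read in the opposite direction. Hspb1 has 2 separate elements upstream of its start and outside any annotated exon. In Bag3 and Hspb8 the only exact matches lie past the start site listed, within the first exon, and the Hspd1 and Hsph1 stretches also overlap exons of some transcripts of those genes. A match to these letters is a description and does not show that a factor binds there.

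**Figure D1:**
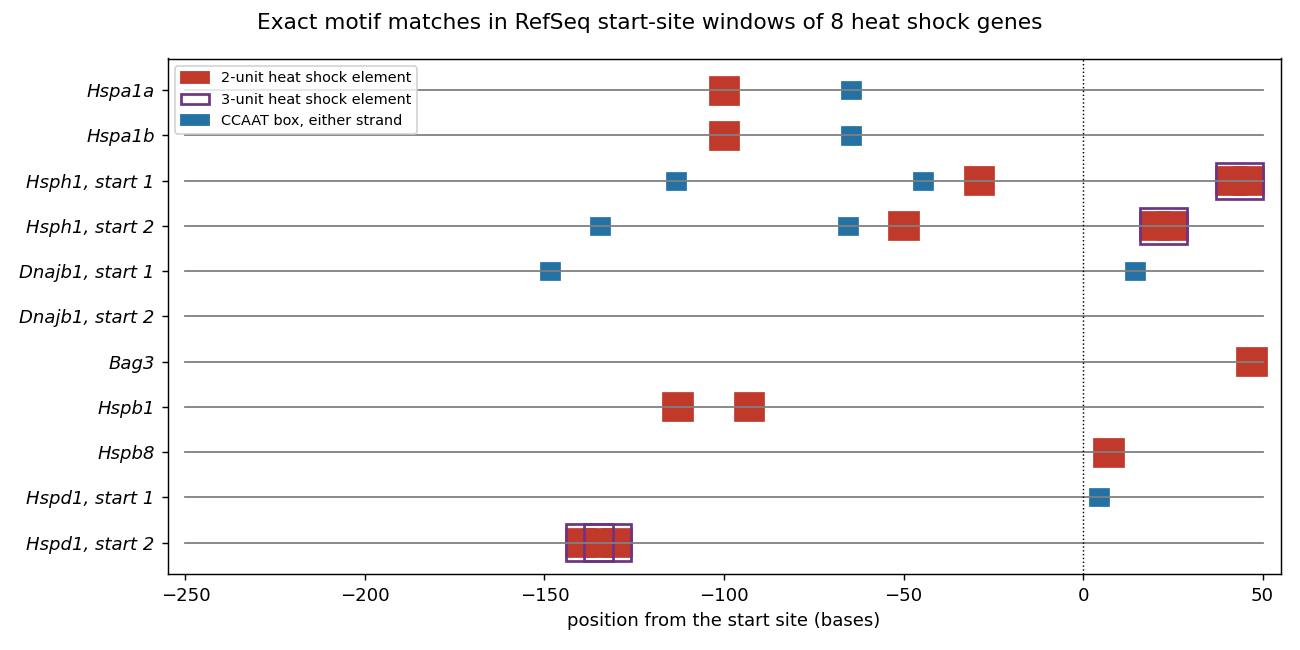
Positions of exact motif matches, in bases from the start site, in the RefSeq windows of the 8 heat shock genes that have one. A grey line is a window, and genes with 2 listed start sites have 2 lines. Red blocks are 2-unit heat shock elements, purple frames 3-unit elements and blue blocks CCAAT boxes on either strand. Hspa1a and Hspa1b carry the same layout, and both Dnajb1 lines lack red blocks.

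In the saline pancreas Hspa8, the housekeeping HSP70, was the most abundant of the 10 genes, at 433 and 527 TPM, followed by Hspd1 at 243 and 283 TPM and Hsp90aa1 at 98.4 and 98.6 TPM. Hspb8 (43.3 to 50.7 TPM) and Hspb1 (38.5 to 45.5 TPM) overlapped, as did Dnajb1 (17.7 to 18.0 TPM) and Bag3 (16.4 to 19.2 TPM). Hsph1 stood at 6.11 and 6.52 TPM. Hspa1a (0.852 to 5.08 TPM) and Hspa1b (1.80 to 2.93 TPM) were lowest and overlapped with each other. In the AP mice Hspa8 still ranked first, and Hspd1 (455 to 589 TPM) and Hsp90aa1 (441 to 514 TPM) overlapped. Hspb1 and Hspb8 came next, Hspa1b had moved from rank 10 to rank 6, above Dnajb1 and Bag3, and Hspa1a (14.5 to 22.8 TPM) overlapped Hsph1 (15.2 to 18.5 TPM) at the bottom. Together the 10 genes summed to 915 and 1041 TPM in saline mice, 2178 and 2471.1 TPM in AP mice, and 2817 and 2968 TPM after polyI:C pretreatment.

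**Figure D2:**
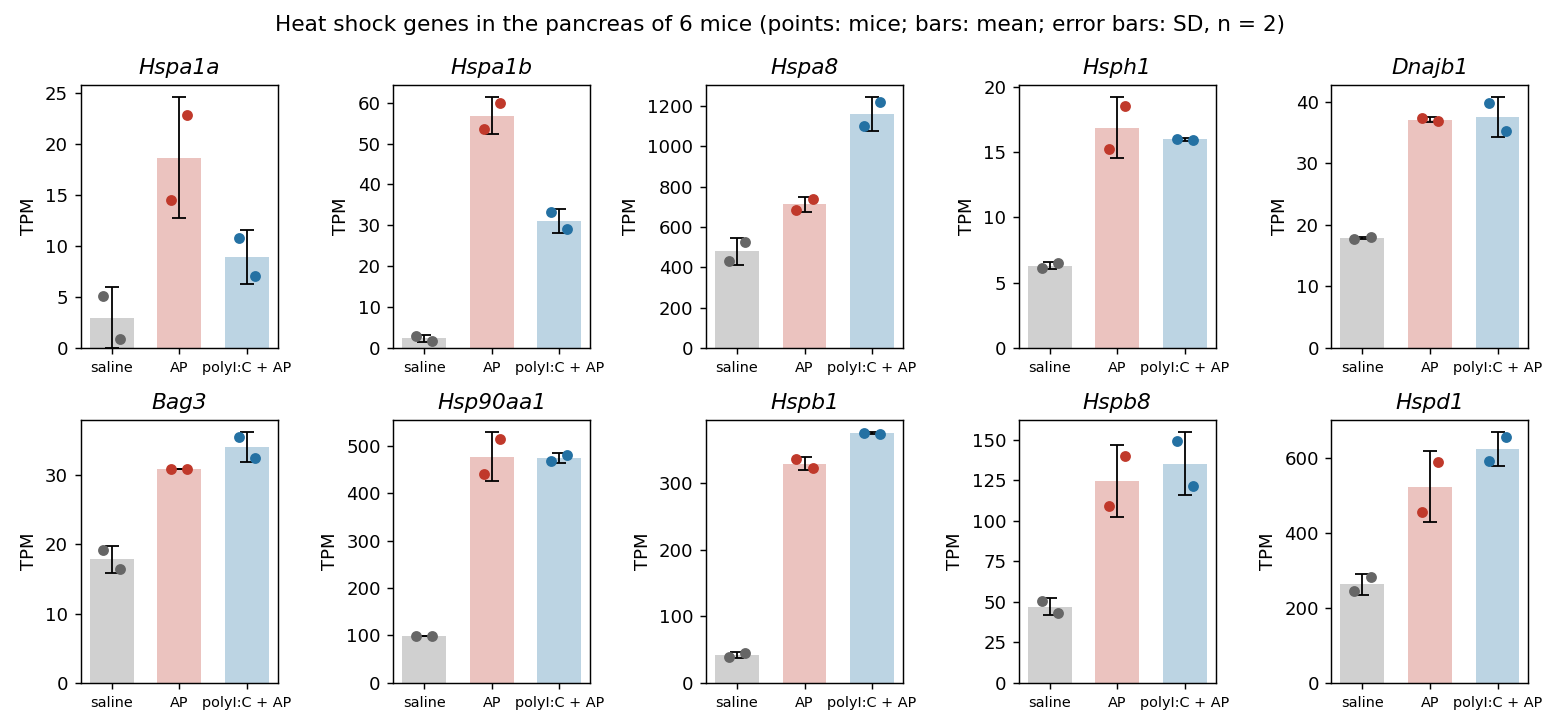
TPM of the 10 heat shock genes in each of the 6 mice. Points are mice, bars the mean and error bars the SD (n = 2 per group), each panel has its own axis from 0, and "polyI:C + AP" stands for the polyI:C-pretreated AP mice. In every panel both AP mice lie above both saline mice, while Hspa1a and Hspa1b lie lower, and Hspa8 higher, after polyI:C pretreatment than in AP mice.

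The first comparison asks which of these genes differed between the inflamed pancreas and the saline pancreas. In AP mice the inducible HSP70 pair, Hspb1 and Hsp90aa1 rose most, Hspb8, Hsph1 and Dnajb1 rose at least 2-fold in TPM, and Hspa8, Bag3 and Hspd1 rose by less. With limma's moderated test, a gene passed the threshold at an adjusted p no higher than 0.05 (Benjamini-Hochberg over all tested genes) together with a change of 2-fold or more. By this rule 7 of the 10 genes were higher in AP than in saline mice and 0 lower, against 18.2% of all tested genes higher and 4.03% lower. With the adjusted p alone all 10 were higher, against 33.1% of all genes. All 10 also had both AP mice above both saline mice, as did 52.7% of all genes. After median-of-ratios scaling 4 of the 10 remained past the threshold, namely Hspa1a, Hspa1b, Hspb1 and Hsp90aa1, against 9.36% of all genes. The median difference of the 10 was 1.37 on the log2 scale, or 0.95 after scaling, beside medians of 0.45 and 0.06 for all genes. With 2 mice a group, an exact permutation test of a single gene cannot go below p = 0.333, so the calls rest on the spread shared across genes. The labels do not say whether same-group samples were handled separately, and p-values measure the spread between these samples.

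Hspa1b showed the steepest difference of the 10. It stood at 2.93 and 1.80 TPM in saline mice, 53.6 and 59.9 TPM in AP mice, and 33.2 and 29.0 TPM after polyI:C pretreatment. The 3 groups did not overlap. The mean of the AP mice was 23.98 times that of the saline mice, and the fitted log2 difference was 4.35 (SE 0.21, limma adjusted p = 4.9e-05), or 3.97 after scaling. On the scale of log2(TPM + 0.5) the change of low genes is understated, and the saline values rest on an estimated 12 and 6.0 reads, against 321 and 454 in AP mice.

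Hspa1a, which codes for a nearly identical HSP70 protein, was less certain. Its values were 5.08 and 0.852 TPM in saline mice, 14.5 and 22.8 TPM in AP mice, and 10.8 and 7.05 TPM after polyI:C pretreatment. The groups did not overlap, but the saline mice differed from each other by 2.05 on the log2 scale, the widest gap of any of the 10 genes within a group, and rest on an estimated 22 and 3.0 reads. The log2 difference between AP and saline was 2.77 (SE 0.64, limma adjusted p = 0.0135), or 2.41 after scaling. It ranged from 1.75 without saline replicate 2 to 3.79 without saline replicate 1. Each such fit leaves 1 mouse in a group, which is assumed to vary like the mice of the other groups, as for every other value given without a replicate. The call was lost without AP replicate 1 (3.09, adjusted p = 0.0914), without AP replicate 2 (2.45, adjusted p = 0.138) and without polyI:C-pretreated AP replicate 1 (2.77, adjusted p = 0.0702).

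The 2 genes cannot be fully separated by short reads. Their coding sequences in GENCODE M21 aligned over 1929 columns with 99.4% identity, with 8 substitutions and 3 gap columns. Of the stretches of 100 bases in Hspa1a, 56.5% occur in another annotated gene, mostly Hspa1b, and of those in Hspa1b, 49.9%. How reads matching both were treated is not given in the sources used here. The sum of the 2 genes, which depends little on how reads are divided between them though it would lack reads left out of both, was 8.01 and 2.65 TPM in saline mice, 68.1 and 82.8 TPM in AP mice, and 44.0 and 36.0 TPM after polyI:C pretreatment. The sum kept the order of the groups with no overlap. Hspa1b exceeded Hspa1a by 2.63 to 4.11 times in the 4 caerulein-treated mice, and the ratio was 0.577 and 2.12 in saline mice.

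Hspb1, coding for HSP27, a small heat shock protein that also binds actin, went from 38.5 and 45.5 TPM in saline mice to 336 and 322 TPM in AP mice, and stood at 376 and 374 TPM after polyI:C pretreatment. The log2 difference between AP and saline was 2.96 (SE 0.11, limma adjusted p = 2.5e-05), a fitted change of 7.78-fold, and 2.53 after scaling. Hsp90aa1, the stress-inducible cytosolic HSP90, went from 98.4 and 98.6 TPM to 441 and 514 TPM, and stood at 467 and 481 TPM after polyI:C pretreatment. The log2 difference was 2.27 (SE 0.10, limma adjusted p = 3.8e-05), and 1.84 after scaling. For both genes the replicates of a group lay close together, and the caerulein-treated mice lay far above the saline mice. Both share transcript sequence with pseudogenes: 44.0% of the stretches of 100 bases of Hspb1 also occur elsewhere, chiefly in Hsp25-ps1, and 38.0% of those of Hsp90aa1, chiefly in Gm12346.

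Hspb8, a small heat shock protein that works with Bag3, went from 50.7 and 43.3 TPM in saline mice to 109 and 140.1 TPM in AP mice, with a log2 difference of 1.39 (SE 0.17). Hsph1, coding for the HSP110 exchange factor, went from 6.11 and 6.52 TPM to 15.2 and 18.5 TPM, with a log2 difference of 1.34 (SE 0.14). Dnajb1, coding for the main J protein partner of inducible HSP70, went from 17.7 and 18.0 TPM to 37.3 and 36.8 TPM, with a log2 difference of 1.03 (SE 0.13). These 3 genes passed the threshold in TPM as deposited and not after scaling, where their differences were 0.96, 0.94 and 0.61, each under 2-fold. Their limma adjusted p-values after scaling were 0.0051, 0.0036 and 0.0117, so what was lost was the minimum fold.

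Hspa8, the constitutive HSP70, stood at 433 and 527 TPM in saline mice and 685 and 737 TPM in AP mice. Its log2 difference was 0.57 (SE 0.12, limma adjusted p = 0.0100), close to the median of all genes, and after scaling it was 0.14 (adjusted p = 0.459). Bag3 went from 19.2 and 16.4 TPM to 30.9 and 30.9 TPM, a difference of 0.78 (SE 0.15) that was 0.36 after scaling (adjusted p = 0.112). Hspd1 went from 243 and 283 TPM to 455 and 589 TPM, a difference of 0.98 (SE 0.15) that was 0.55 after scaling (adjusted p = 0.0314). None of these 3 reached the 2-fold minimum. Hspd1 passed it without saline replicate 2 (1.09) or without AP replicate 1 (1.17). Of the stretches of 100 bases of Hspa8, 28.5% occur in other genes, and of those of Hspd1, 23.9%, whereas Hspb8, Dnajb1, Hsph1 and Bag3 shared none.

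The second comparison asks whether polyI:C given before caerulein altered these genes in the inflamed pancreas. None of the 10 passed the threshold between polyI:C-pretreated AP and AP mice with limma, against 0.441% of all genes higher and 0.405% lower. At an unadjusted p below 0.05 there were 2, Hspa8 and Hspa1b, beside 14.0% of all genes, and voom on the estimated reads also called 0. The 142 genes called in all in this comparison fell to 66 without polyI:C-pretreated AP replicate 1, and to 0 without AP replicate 1, AP replicate 2 or polyI:C-pretreated AP replicate 2. In 4 of the 10 both polyI:C-pretreated AP mice lay above both AP mice (Hspb1, Hspa8, Bag3 and Hspd1) and in 2 both lay below (Hspa1a and Hspa1b), against 27.7% and 22.1% of all genes. The median difference of the 10 was 0.07 on the log2 scale, beside 0.04 for all genes.

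The 2 kinds of HSP70 lay on opposite sides. Hspa8 stood at 685 and 737 TPM in AP mice and 1099.5 and 1217 TPM after polyI:C pretreatment. The log2 difference was 0.70 (95% interval 0.41 to 1.00, limma adjusted p = 0.0570). Hspa1b was 53.6 and 59.9 TPM in AP mice and 33.2 and 29.0 TPM after polyI:C pretreatment, a log2 difference of -0.86 (95% interval -1.37 to -0.35, limma adjusted p = 0.135). Neither passed the threshold. After median-of-ratios scaling the limma adjusted p was 0.0771 for Hspa8 and 0.130 for Hspa1b. Both genes have a 95% interval that leaves out 0, but those intervals are not adjusted for the number of genes. The alternatives listed next all gave an adjusted p below 0.05, and the others run are not listed. Without the 2-fold minimum, Hspa8 had an adjusted p of 0.0378 with the replicate number as a block, 0.0420 with only genes of at least 5 TPM, 0.0286 with only the 4 samples compared and 0.0127 with voom, and Hspa1b had 0.0390 and 0.0135 in the last 2 of these. Hspa1a differed by -1.02 (95% interval -2.54 to 0.51, adjusted p = 0.559), an interval wide enough for a fall of over 4-fold as well as a small rise. Per library, Hspa8 stood at 148 and 292 times Hspa1b in saline mice, 12.8 and 12.3 times in AP mice, and 33.1 and 42.0 times after polyI:C pretreatment.

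The other 7 genes lay close to the AP mice. Hsp90aa1 differed by -0.01 (95% interval -0.24 to 0.23), Dnajb1 by 0.01 (-0.30 to 0.32) and Hsph1 by -0.07 (-0.42 to 0.28). For these genes a difference of over 1.5-fold in either direction lies outside the interval. Hspb1 differed by 0.19 (-0.09 to 0.46), Hspb8 by 0.12 (-0.29 to 0.53), Bag3 by 0.14 (-0.23 to 0.50) and Hspd1 by 0.26 (-0.09 to 0.61). A p that misses the threshold does not show that the groups were alike, and the intervals give the sizes that these 4 mice leave possible.

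**Figure D3:**
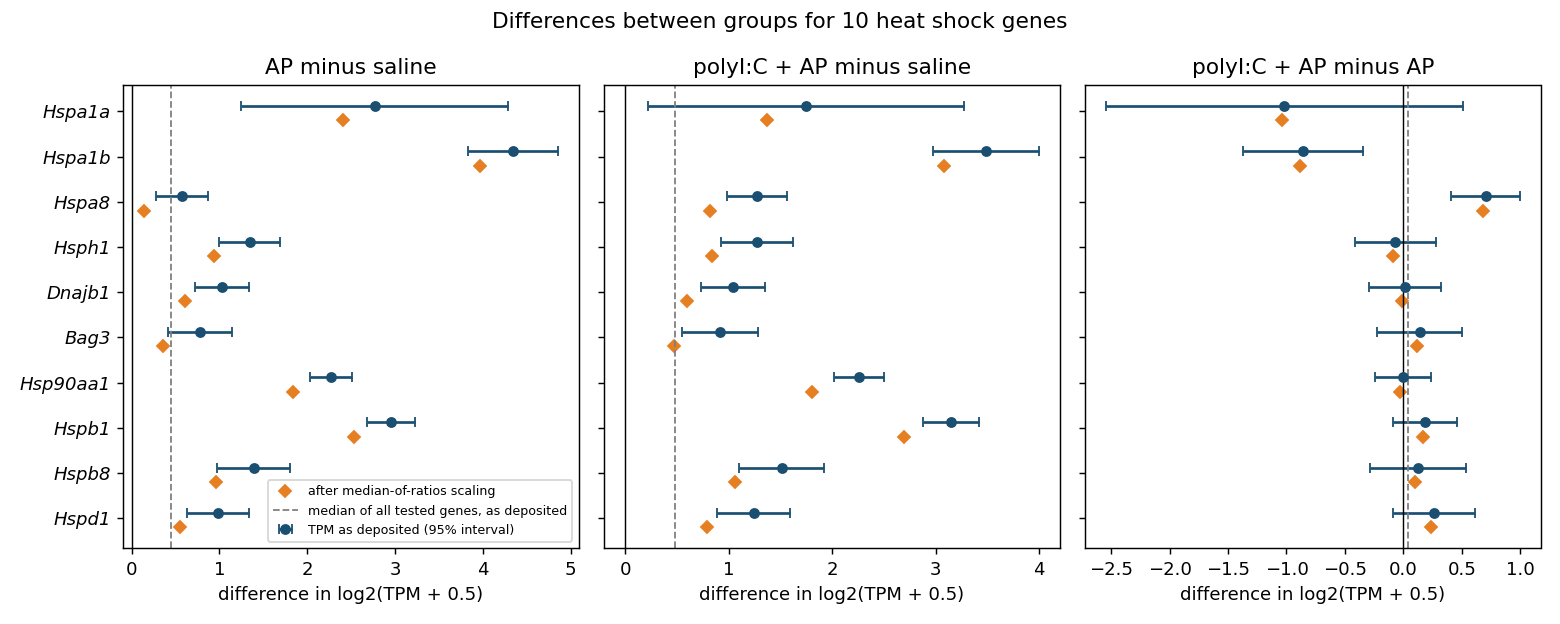
Differences in log2(TPM + 0.5) between groups for the 10 genes. Blue points are TPM as deposited, with limma's 95% interval, orange diamonds are the same differences after median-of-ratios scaling, and the dashed line is the median of all 16778 tested genes as deposited. Against saline all 10 points lie right of the dashed line, and between the 2 caerulein groups Hspa8 lies to the right of 0 and Hspa1b to the left, with no interval across 0.

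Set against the saline mice, the polyI:C-pretreated AP mice had 8 of the 10 genes higher and 0 lower with limma, beside 17.0% and 2.99% of all genes. With the adjusted p alone 9 of the 10 were higher, beside 33.6% of all genes, and in all 10 the groups did not overlap, as in 54.4% of all genes. This comparison shares its saline mice with the first and its treated mice with the second, so it is not independent of either. After scaling 4 of the 10 stayed past the threshold, Hspa1b, Hspb1, Hspb8 and Hsp90aa1, beside 7.93% of all genes. Hspb1 showed a log2 difference of 3.15 (2.70 after scaling), Hspa1b of 3.49 (3.08), Hsp90aa1 of 2.26 (1.81) and Hspb8 of 1.51 (1.06). For Hspa8 it was 1.27 (0.82), for Hsph1 1.27 (0.84), for Hspd1 1.24 (0.79) and for Dnajb1 1.04 (0.60), all past the threshold only in TPM as deposited. Bag3, at 35.6 and 32.6 TPM, differed by 0.92 (0.47) and Hspa1a by 1.75 (1.37, adjusted p = 0.0695 before scaling), and neither was called. Leaving out saline replicate 1 made both calls, at 1.03 for Bag3 (adjusted p = 0.0069) and 2.77 for Hspa1a (adjusted p = 0.0075), whereas without saline replicate 2 Hspa1a differed by 0.73, and leaving out polyI:C-pretreated AP replicate 1 ended that of Dnajb1 (0.96).

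Other chaperones were read from lists drawn up with earlier results of these data known, and are given as counts, to be read beside the 18.2% of all tested genes that were higher and the 4.03% that were lower in AP than in saline mice (9.36% and 7.28% after scaling). Among the heat shock factors, Hsf1, the factor that binds heat shock elements, stood at 21.04 and 25.5 TPM in saline mice, 45.9 and 40.0 TPM in AP mice, and 47.1 and 45.5 TPM after polyI:C pretreatment. Its log2 difference between AP and saline was 0.87 (limma adjusted p = 0.0023), below the 2-fold minimum, and 0.45 after scaling. Hsf2, a related factor, was past the threshold in TPM as deposited (2.01-fold) and not after scaling (0.59 on the log2 scale). It was the only gene called of the 5 tested in that list, which also holds Hsbp1 and Hsf2bp, not heat shock factors themselves. Of the other HSP70 and HSP110 genes 3 of 6 tested rose between saline and AP mice (Hspa4, Hspa4l and Hspa14), against 18.2% of all genes, and of the J proteins and exchange factors 7 of 23, with Dnajc2 (1.26) and Dnaja1 (1.14) highest. After scaling 0 of those were past the threshold upward.

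Of the HSP90 list, 6 of 16 genes rose between saline and AP mice (18.2% of all genes), and 0 after scaling (9.36%). Hsp90ab1, the constitutive HSP90, stood at 371 and 350.1 TPM in saline mice, 888 and 878 TPM in AP mice, and 1233 and 1247 TPM after polyI:C pretreatment. Its log2 difference between AP and saline was 1.29 (0.86 after scaling), and between polyI:C-pretreated AP and AP 0.49 (limma adjusted p = 0.0538). The ratio of Hsp90aa1 to Hsp90ab1 was 0.265 and 0.282 in saline mice, 0.497 and 0.585 in AP mice, and 0.379 and 0.386 after polyI:C pretreatment. The 3 groups did not overlap in this ratio. Nudc, a co-chaperone of HSP90, showed 1.40 (0.97 after scaling).

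Of the TRiC and prefoldin genes, whose products fold newly made actin and tubulin, 5 of 13 rose (18.2% of all genes), led by Cct3 (1.33) and Cct8 (1.26), and 0 did after scaling (9.36%). Genes listed by name as other small heat shock proteins were divided. Cryab, the alpha B crystallin gene, rose by 1.47 (1.05 after scaling) and Hspb11 by 1.47 (1.08), the latter not called after scaling. Hspb3, from 13.2 and 22.6 TPM to 0 and 4.74 TPM, and Hspb6, from 5.34 and 6.39 TPM to 2.27 and 2.11 TPM, fell on both scales, and with Hspb11 were named after their values were seen. Among 12 partners of Bag3 in chaperone-assisted autophagy 4 rose, against 18.2% of all genes, led by Flna (2.73), coding for the actin crosslinker filamin A, and Sqstm1 (2.30), coding for the autophagy receptor p62, which went from 198 and 241 TPM to 1023 and 1130.5 TPM. In these last 2 the difference stayed past the threshold after scaling (2.31 and 1.87).

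In the mitochondrial list 1 of 14 genes rose, against 18.2% of all genes, namely Lonp1, coding for a matrix protease, by 1.85 (1.42 after scaling, where another gene of the list fell). Hspe1, the neighbour of Hspd1, stood at 169 and 198 TPM in saline mice, 211 and 292 TPM in AP mice, and 261 and 308 TPM after polyI:C pretreatment. Its log2 difference between AP and saline was 0.44 (limma adjusted p = 0.0955), and 0.01 after scaling. In the list of chaperones of the endoplasmic reticulum (ER) and the unfolded protein response 3 of 23 genes rose and 2 fell, beside 18.2% and 4.03% of all genes. After scaling 2 rose and 8 fell, beside 9.36% and 7.28%. The 3 that rose in TPM as deposited were Xbp1, Ddit3 and Trib3, which are not chaperone genes. Trib3 rose by 3.01 and Herpud1, coding for a membrane protein of protein degradation at the ER, fell by 2.07 on the log2 scale. Hspa5, the HSP70 of the ER, stood at 895 and 1085 TPM in saline mice, 1354 and 1352 TPM in AP mice, and 952 and 807 TPM after polyI:C pretreatment. It lay lower in polyI:C-pretreated AP than in AP mice by 0.63 on the log2 scale (limma adjusted p = 0.0853, not called), where cytosolic Hspa8 lay higher. In that comparison 0 of the 105 tested genes of the lists of factors, chaperones and proteases passed the threshold with limma (0.441% of all genes higher and 0.405% lower) or with voom, and 10 had an unadjusted p below 0.05, against 14.0% of all genes.

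**Figure D4:**
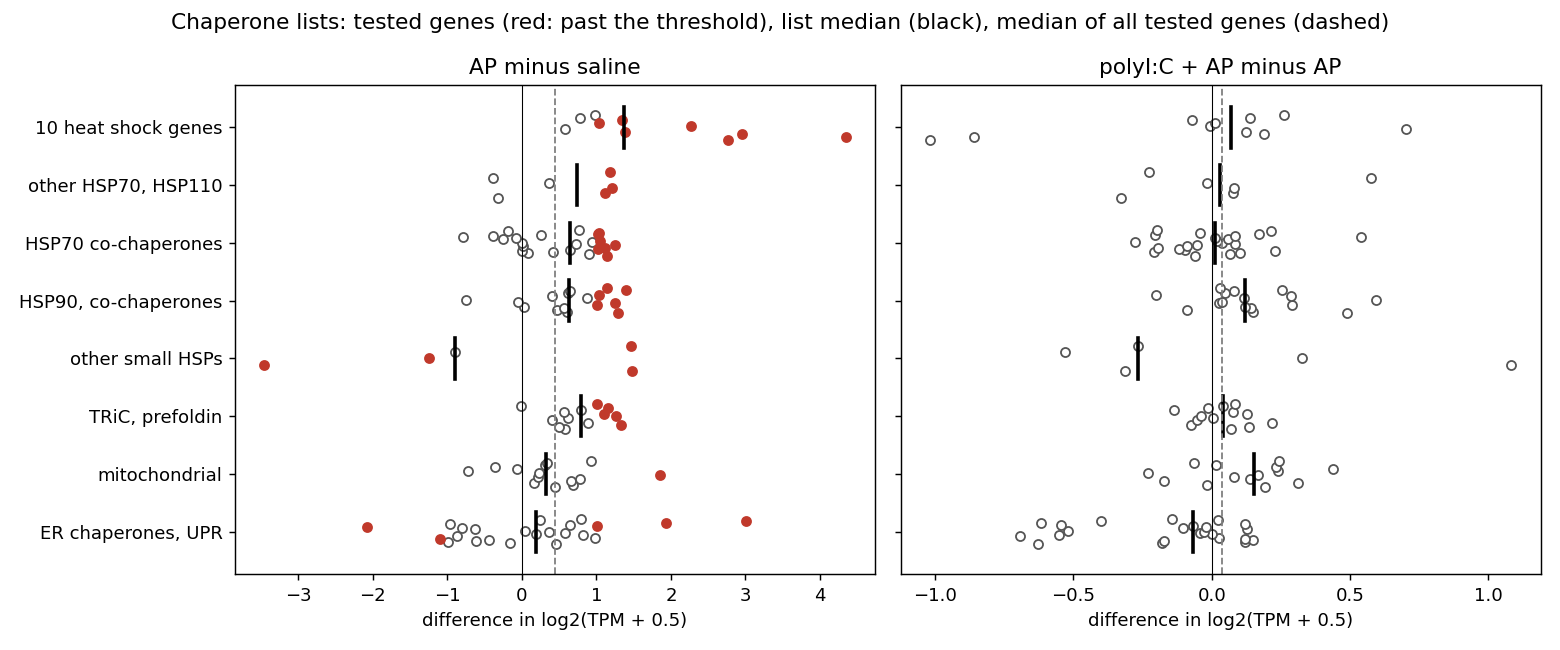
Differences in log2(TPM + 0.5) of the tested genes of the 10 heat shock genes and of 7 further lists of chaperones and related genes, for AP minus saline (left) and polyI:C-pretreated AP minus AP (right). Each circle is a gene, filled red where it passed the threshold, black bars are list medians, and the dashed line is the median of all tested genes. On the left Hspa1b lies furthest right at 4.35 and Hspb3 furthest left at -3.46, and on the right there are no red circles.

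The RNA of cell type markers also differed between groups, and in bulk RNA fewer cells of a type and less RNA per cell cannot be told apart. Acinar markers such as Ctrc and Sycn were present in every library. Of the 26 listed, only 8 had values in the expression tables and 18 had none. The sums below, and the total TPM they are set against, leave those 18 out. Amy2a2 was at 0 in the 4 caerulein-treated mice, but its mean over all libraries was below the 1 TPM needed for testing. A loss of its RNA with caerulein cannot be read from such low values. Summed, the acinar markers made up 10.1% and 8.93% of all TPM in saline mice and 3.25% and 2.19% in AP mice. After polyI:C pretreatment they made up 1.52% and 1.18%. Nearly all of this sum came from Sycn. Of 7 tested, 4 fell between saline and AP mice, beside 4.03% of all genes, and 2 were higher after polyI:C pretreatment than in AP mice (Bhlha15 and Rbpjl), beside 0.441%. Summed duct markers were 2488 and 2790 TPM in saline mice, 34054 and 36418 TPM in AP mice, and 32325 and 25405 TPM after polyI:C pretreatment, mostly from the keratins Krt8 and Krt18. Summed leukocyte markers were 626 and 406 TPM, 2278 and 2610 TPM, and 344 and 248 TPM in the same order, mostly from Lyz2, with 4 of 15 tested lower in polyI:C-pretreated AP than in AP mice and 0 higher, beside 0.405% and 0.441% of all genes. The T cell marker Cd3e was at 0 in 1 AP and 1 polyI:C-pretreated AP library, while S100a8 and Cxcr2, genes of neutrophils, were at 0 in 1 saline library. Duct markers, like Hspb1 and Hsp90aa1, were high in all 4 caerulein-treated mice, whereas summed leukocyte markers, like Hspa1a and Hspa1b, were lower after polyI:C pretreatment than in AP mice. That sum, mostly Lyz2, lay below the saline mice as well, but of the 15 tested leukocyte markers 1 was called higher (Cd68, by 1.78) and 3 lower than in saline mice, with a median log2 difference of 0.07. The part of these cell types in the results was not tested.

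Among themselves the 10 genes did not share a single profile. Each gene was centred on its mean of log2(TPM + 0.5) over the 6 samples. The nearest pair was Dnajb1 and Bag3 (Euclidean distance 0.307) and the farthest Hspa1b and Hspa8 (3.85). Genes were not scaled to equal spread, so the distance reflects the size of a change and differences between replicates as well as the shape. For each gene the closest of all other tested genes was also found. These were Cttn for Hsp90aa1 (0.0767), Fas for Hspd1 (0.0738), Ranbp10 for Bag3 (0.0772), Tmem14c for Hsph1 (0.0845), Tmx3 for Dnajb1 (0.0878) and Slc39a10 for Hspb8 (0.118). For Hspa8 it was Slc11a2 (0.254), for Hspb1 Aldh3b1 (0.267), for Hspa1b Fut2 (0.377) and for Hspa1a Gm17334 (0.579). The distances were longest for the inducible HSP70 pair. Among the 10 closest genes of each outside the set, a gene of the lists of factors, chaperones and proteases appeared for Hsph1 and Dnajb1 alone. These were the chaperonin gene Cct3 for Hsph1 and Xbp1, a transcription factor gene of the unfolded protein response, for Dnajb1. The lists hold 105 of the 16778 tested genes.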

How the data were processed

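Paired reads of 150 bases were trimmed (Trimmomatic), aligned to mm10 (STAR), counted per gene (HTSeq) and compared with DESeq2 by the authors. The files deposited by the authors hold TPM per Ensembl gene, and the step from counts to TPM is not given in the sources used here. The paper names a stranded mRNA kit and the labels a ribosomal RNA depletion kit as well. Of 22556 identifiers, 22490 matched GENCODE M21 (GRCm38). Since TPM are not counts, limma (3.58.1, R 4.3.3) was fitted to log2(TPM + 0.5) of all 6 mice, keeping genes whose mean reached 1 TPM, with a variance prior following log2(mean TPM × exon length + 1) and Benjamini-Hochberg adjustment over 16778 genes. The fit was also run on simulated data in which the groups had the same mean profile apart from a set of changed genes. Those data held no shift of the median between groups, so that run does not bear on the choice of scale. Reads per library were estimated from the spacing of low TPM values (near whole multiples, tolerance 0.1, in 51.2% to 62.4% of low values, and in 19.2% to 20.6% with gene lengths shuffled). Members and lists were chosen with earlier results of these data known. Named genes are the 10 members, Hsf1, Hsf2, up to 2 called genes per list and comparison with a mean of at least 10 TPM, and each member's nearest profile. Others named were picked after their values were seen. Replicate numbers did not pair the samples. Promoter windows are RefSeq's.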

Additional observations from a re-analysis of the deposited data

How the results depend on the processing

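Groups of 2 mice and the low reads of Hspa1a and Hspa1b in the saline mice set the main limit. The counts of the 10 genes called against saline were 7 in AP and 8 in polyI:C-pretreated AP mice, and both fell to 4 with median-of-ratios scaling and to 4 with upper-quartile scaling. Leaving out each mouse, with the lone mouse of that group assumed to vary like the others, gave 6 to 8 and 7 to 10, and 0 to 0 between the 2 caerulein groups. Over all genes, the 3731 calls of AP against saline became 6801 without a minimum fold change and 2461 to 3759 without each mouse, and the 3346 of polyI:C-pretreated AP against saline became 6617 and 2594 to 3448. The share of calls that were higher fell from 81.9% to 56.2% and from 85.0% to 57.6% with median-of-ratios scaling. The 142 calls between the caerulein groups became 90 with any value above 0 kept, 41 with one prior for all genes, 28 with a prior following mean log2 TPM, 250 with only the 4 samples compared, 328 with voom on estimated reads (chosen after seeing the data) and 0 to 145 without each mouse. The causes were not tested. With one prior for all genes Hspa1a was no longer called in AP against saline (adjusted p = 0.0551). With voom Dnajb1 was no longer called against saline in either group, nor Hspd1 in polyI:C-pretreated AP mice. Small differences between the caerulein groups changed sign. Dnajb1 (0.01) became -0.012 with median-of-ratios scaling, -0.036 with upper-quartile scaling and -0.019 with voom, and ranged from -0.074 (without polyI:C-pretreated AP replicate 1) to 0.099 without each mouse. Without each mouse Hspb8 ranged from -0.057 to 0.30, Hsp90aa1 from -0.11 to 0.10 and Hsph1 from -0.21 to 0.067. Same-numbered mice did not deviate together (correlations 0.0069, 0.0335 and -0.0045), and with the replicate number as a block the 10 genes gave 7, 0 and 8 calls and all genes 3656, 127 and 3291. Of the differences of the 10 genes over all alternatives, 501 kept their direction and side of the threshold, 22 lost a call, 8 gained one and 9 changed sign.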

Other observations

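Immediate early genes, which code for transcription factors and regulators switched on within minutes of a stimulus, were the listed stress group with the highest median between saline and AP mice. Of 17 tested, 15 rose and 0 fell (12 and 0 after scaling), beside 18.2% of all genes higher (9.36% after scaling), with a median log2 difference of 2.11 beside 1.37 for the 10 heat shock genes and 0.45 for all tested genes. Atf3, a stress-responsive transcription factor, stood at 2.05 and 6.31 TPM in saline mice, 118 and 106 TPM in AP mice, and 68.0 and 50.6 TPM after polyI:C pretreatment. Ier3 stood at 6.66 and 14.9 TPM, 268 and 279 TPM, and 121 and 96.3 TPM in the same order. As in Hspa1a and Hspa1b, both polyI:C-pretreated AP mice lay below both AP mice and above both saline mice. Between the caerulein groups the median of the list was -0.41, and 0 of the 17 passed the threshold with limma, 5 had an unadjusted p below 0.05 (14.0% of all genes), and voom on the estimated reads called 1, Ier3.

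Of 13 interferon-stimulated genes tested, 9 were already higher in AP than in saline mice, beside 18.2% of all genes. After scaling 5 were, beside 9.36%. After polyI:C pretreatment 7 were higher and 0 lower than in AP mice, beside 0.441% and 0.405% of all genes, with Irf7, a regulator of interferon genes, at 0.604 and 0.878 TPM in saline mice, 3.15 and 6.14 TPM in AP mice, and 79.0 and 79.2 TPM after polyI:C pretreatment.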
